A study of Mus musculus with 12 samples.

Results

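The inflammasome and NOD-like receptor genes described here were Nlrp3, Nlrc4, Naip5, Nod1, Nod2, Pycard, Casp1, Casp4 and Gsdmd. They were taken by name from the deposited count table, and all 9 were found among its 21965 genes and passed the filter on low counts that left 15046 genes for testing. The tissue was gingiva of mice below 12 weeks of age, with 3 libraries from separate mice in each of 4 groups. The WT mice were C57BL/6 per the labels and C57BL/6J per the methods. WT naive and CybbKO naive mice carried no ligature, and WT ligated and CybbKO ligated mice had a silk ligature tied around a maxillary molar for 8 days, a model in which bacteria gather on the thread and inflame the gum. CybbKO mice carry a knockout of Cybb, which codes for the gp91phox subunit of the phagocyte NADPH oxidase Nox2. The knockout is present in every cell, and naive and ligated tissue came from different mice.

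Inflammasomes are protein complexes that assemble in the cytosol when a sensor meets a microbial product or a sign of damage. NLRP3 responds to potassium loss and membrane damage, whereas NAIP proteins bind bacterial flagellin or secretion needles and then engage NLRC4. The adaptor ASC, encoded by Pycard, joins sensors to caspase-1, which matures IL-1 beta and IL-18 and cleaves gasdermin D into a pore that lyses the cell. Caspase-11, encoded by mouse Casp4, binds bacterial lipopolysaccharide and cleaves gasdermin D without a sensor of the NLR family. NOD1 and NOD2 bind fragments of bacterial peptidoglycan and signal through the kinase RIPK2 to NF-kB. In the gum these proteins are known from both infiltrating phagocytes and epithelium.

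The libraries held between 27958819 and 42613423 reads counted on genes. Cybb itself had 41.6 to 63.7 CPM (counts scaled to the TMM-adjusted library size) in the 6 libraries labelled CybbKO and 4.19 to 15.2 CPM in the 6 WT libraries, so the targeted transcript was higher, not lower, where the label gives a knockout. Reads were summed over all exons of Cybb, so the exon that the allele disrupts could not be checked. Every direction drawn below between genotypes is therefore one between libraries labelled CybbKO and WT. Keratins and other oral epithelium markers made up 77072 to 143604 CPM of each library, as the tissue label gives. WT naive replicate 3 stood apart by 29371 CPM of salivary gland markers, against 63.7 to 5086 CPM in the other libraries, and CybbKO ligated replicate 2 had the most epithelium and the fewest fibroblast, macrophage and neutrophil marker counts of its group.

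Per length of transcript, the 9 genes fell into 3 ranges. The caspase and the adaptor of the complex were the most abundant. Casp1 had 126 ± 33.7 CPM per kilobase of exon (RPKM, mean ± SD, n = 3) in WT naive, 86.0 ± 8.38 RPKM in WT ligated, 136 ± 15.4 RPKM in CybbKO naive and 84.6 ± 5.15 RPKM in CybbKO ligated tissue. Pycard had 64.1 ± 8.60 RPKM in WT naive, 64.7 ± 4.98 RPKM in WT ligated, 76.2 ± 1.53 RPKM in CybbKO naive and 61.2 ± 13.7 RPKM in CybbKO ligated tissue. The order of these neighbours depends on the length given to Pycard, because its annotation of 3800 bases of exon extends beyond the RefSeq gene. With the 2135 bases that lie inside the RefSeq gene, a choice made after seeing the data, Pycard had 114 RPKM in WT naive, 115 RPKM in WT ligated, 136 RPKM in CybbKO naive and 109 RPKM in CybbKO ligated tissue. It then stood level with Casp1 in naive CybbKO tissue and above it in ligated tissue.

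The middle range held Nod2, Gsdmd, Nod1 and Casp4, with group means of 6.09 to 7.93 RPKM for Nod2, 3.15 to 7.24 RPKM for Gsdmd, 3.46 to 4.66 RPKM for Nod1 and 2.43 to 5.35 RPKM for Casp4. The spreads of Nod2 and Gsdmd overlapped in CybbKO ligated tissue, at 7.93 ± 1.53 RPKM (SD, n = 3) and 7.24 ± 0.499 RPKM. On the length of the principal transcript, also chosen after seeing the data, Casp4 moved up to 13.8 RPKM and Gsdmd to 9.60 RPKM in this group. The inflammasome sensors were the scarcest. Nlrp3 had group means of 0.20 to 1.33 RPKM, Naip5 of 0.25 to 0.49 RPKM and Nlrc4 of 0.096 to 0.17 RPKM. In all 4 groups the mean RPKM of each adaptor, caspase, gasdermin and NOD transcript was above that of each of these 3 sensors.

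**Figure D1:**
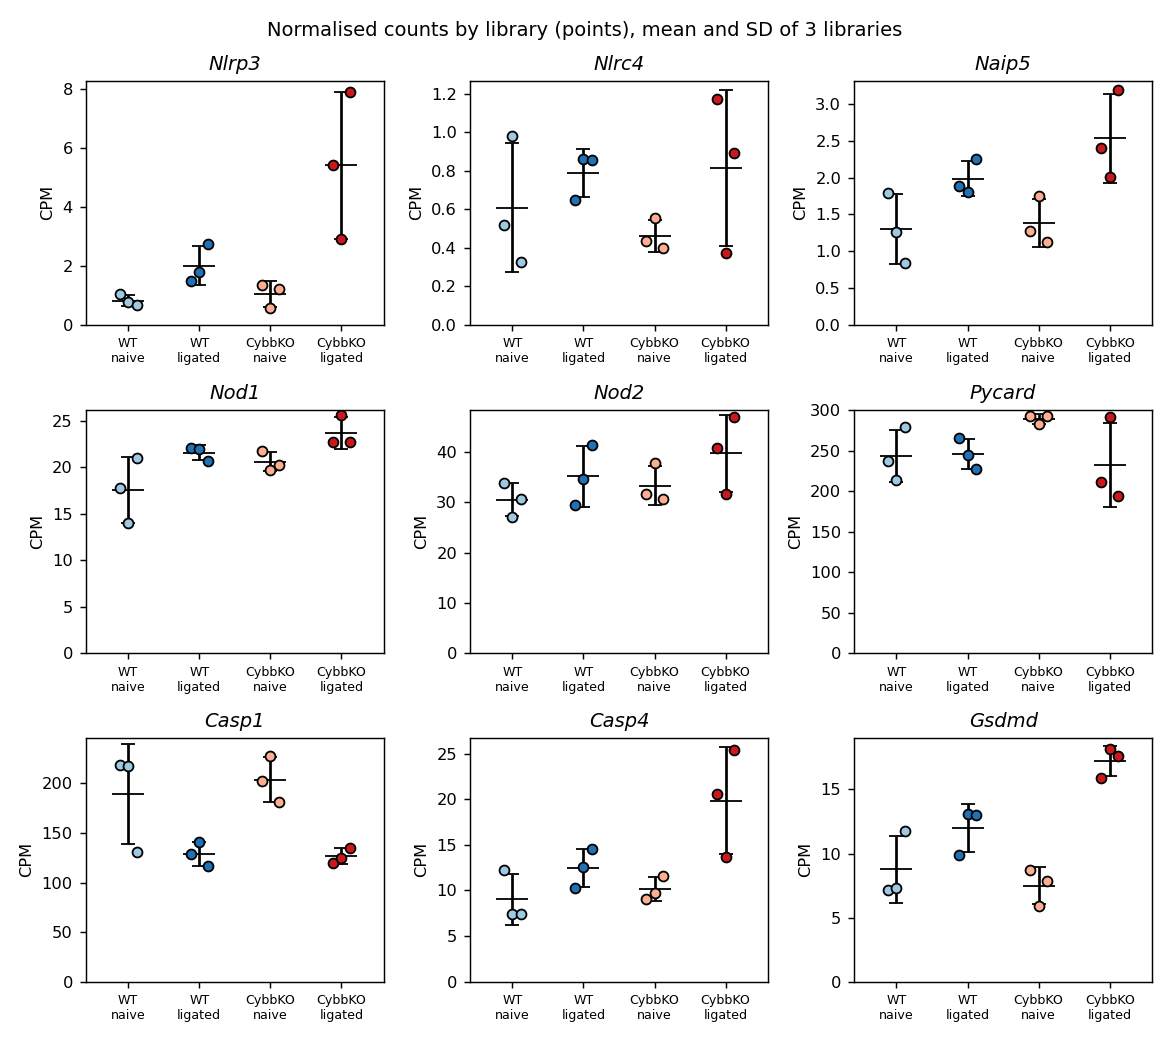
Normalised counts (CPM, linear axes from 0) of the 9 genes in each of the 12 libraries. Points are libraries, long ticks the group means and bars the SD of 3 libraries. Nlrp3 and Gsdmd were highest in the 3 CybbKO ligated libraries, and Casp1 was lower in all 3 of them than in the CybbKO naive libraries.

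With the ligature, 4 of the 9 genes changed in CybbKO mice and 0 of 9 in WT mice by edgeR's test. Of all 15046 genes tested, 13% were called in CybbKO tissue and 3.2% in WT tissue. In CybbKO tissue Nlrp3, Gsdmd and Casp4 rose, as 9.95% of all genes did, and Casp1 fell, as 3.04% did. The median log2 fold change of the 9 genes was 0.81 in CybbKO and 0.36 in WT tissue, against -0.03 over all genes tested in each. Before adjustment, 5 of the 9 had a p under 0.05 in CybbKO tissue, where 27.7% of all genes did, and 2 of 9 in WT tissue, where 19.9% did. The ligated and naive libraries did not overlap for 6 of the 9 genes in CybbKO tissue and for 2 of 9 in WT tissue, against 31.4% and 24.9% of all genes. DESeq2 called 5 of the 9 in CybbKO tissue, with 17.9% of all genes, and 1 of 9 in WT tissue, with 8.97% of all genes. That these counts differ between genotypes is not a test of a difference, which is given after the single genes.

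Nlrp3 (ENSMUSG00000032691), the sensor, lies on the plus strand of chromosome 11 of GRCm38 from 59541568 to 59566956. It had 1.04, 0.759 and 0.656 CPM in the WT naive libraries and 1.47, 1.81 and 2.75 CPM in the WT ligated libraries. The CybbKO naive libraries had 1.36, 0.555 and 1.22 CPM and the CybbKO ligated libraries 5.41, 2.92 and 7.90 CPM. Every ligated library was above every naive library of its genotype, and the CybbKO ligated libraries were the highest of all 12, with no overlap with WT ligated. In CybbKO mice the ligature raised Nlrp3 5.18-fold, a log2 fold change of 2.37 ± 0.44 (standard error) with an adjusted p of 0.00565. In WT mice the log2 fold change was 1.29 ± 0.44, and the adjusted p was 0.128, or 0.0517 by DESeq2. The CybbKO call held under each of the 20 alternatives run, with log2 fold changes of 1.99 to 2.67 and adjusted p-values of 3.2e-06 to 0.0269. A promoter window of Nlrp3 is shown because this gene had the greatest ligature response of the 9. Another RefSeq window of Nlrp3 (chr11:59542436-59542735, plus strand), not shown, held PU.1 cores and no NF-kB consensus. The window shown covers 250 bases before to 50 after the RefSeq transcript start (GRCm38.p6, chr11:59541319-59541618, plus strand). Its capitals mark the match to the NF-kB consensus, 186 to 177 bases before the start.
Nlrp3: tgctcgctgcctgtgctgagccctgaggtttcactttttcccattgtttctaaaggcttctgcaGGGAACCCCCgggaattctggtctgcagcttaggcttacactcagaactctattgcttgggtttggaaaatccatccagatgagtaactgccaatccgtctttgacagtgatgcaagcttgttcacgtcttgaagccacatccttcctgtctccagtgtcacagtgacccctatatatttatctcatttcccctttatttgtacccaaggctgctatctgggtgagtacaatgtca

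The NAIP-NLRC4 sensors did not pass the test in either genotype. Naip5 (ENSMUSG00000071203; chromosome 13, 100211739 to 100246323, minus strand), the flagellin receptor, had 1.80, 1.27 and 0.838 CPM in WT naive and 1.89, 1.81 and 2.26 CPM in WT ligated libraries. It had 1.27, 1.75 and 1.13 CPM in CybbKO naive and 2.40, 2.01 and 3.19 CPM in CybbKO ligated libraries. The ligated libraries lay above the naive ones in both genotypes without overlap. The log2 fold changes were 0.60 ± 0.32 in WT (adjusted p = 0.314) and 0.87 ± 0.31 in CybbKO tissue (adjusted p = 0.0915, or 0.0491 by DESeq2). Naip5 shares long near-identical stretches with Naip1, Naip2 and Naip6, so the reads given to it are uncertain. Nlrc4 (ENSMUSG00000039193; chromosome 17, 74425438 to 74459142, minus strand) was counted by only 9 to 45 reads per library, 0.328 to 1.18 CPM, and its groups overlapped throughout. Its log2 fold changes of 0.36 ± 0.46 in WT and 0.81 ± 0.47 in CybbKO tissue leave both a small and a large response possible at this depth.

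The peptidoglycan receptors did not pass the test in either genotype. Nod1 (ENSMUSG00000038058; chromosome 6, 54923949 to 54972612, minus strand) had 17.73, 13.98 and 20.995 CPM in WT naive and 22.03, 22.01 and 20.68 CPM in WT ligated libraries. In the libraries labelled CybbKO it had 21.7, 19.7 and 20.3 CPM without and 22.7, 25.6 and 22.7 CPM with the ligature. The CybbKO ligated libraries were the 3 highest of the 12, yet by little. The log2 fold change with the ligature was 0.30 ± 0.15 in WT (adjusted p = 0.284) and 0.20 ± 0.15 in CybbKO tissue (adjusted p = 0.406). Nod2 (ENSMUSG00000055994; chromosome 8, 88647315 to 88688474, plus strand) spanned 27.1 to 46.9 CPM, with overlapping groups in every comparison. Its log2 fold change with the ligature was 0.20 ± 0.17 in WT (adjusted p = 0.558) and 0.25 ± 0.17 in CybbKO tissue (adjusted p = 0.376).

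Pycard (ENSMUSG00000030793; chromosome 7, 127989708 to 127993867, minus strand), the ASC adaptor, had 237, 215 and 279 CPM in WT naive and 266, 244 and 228 CPM in WT ligated libraries. It had 293, 283 and 293 CPM in CybbKO naive and 211, 292 and 195 CPM in CybbKO ligated libraries. The CybbKO ligated libraries split, with replicate 2 at the naive level and replicates 1 and 3 below it. The log2 fold change with the ligature was 0.01 ± 0.16 in WT (adjusted p = 0.975) and -0.32 ± 0.16 in CybbKO tissue (adjusted p = 0.213). Without CybbKO ligated replicate 2 the latter was -0.51 with an adjusted p of 0.0201, so 1 library decided this call.

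The inflammatory caspases lie next to each other on chromosome 9 and went in opposite directions. Casp1 (ENSMUSG00000025888; 5298517 to 5307265, plus strand) had 203, 227 and 181 CPM in CybbKO naive and 119.9, 125 and 135 CPM in CybbKO ligated libraries, with no overlap. It had 219, 218 and 131 CPM in WT naive and 129, 141 and 116 CPM in WT ligated libraries. In WT naive tissue replicate 3, the library rich in salivary gland markers, lay at the ligated level and the other 2 far above it. The ligature lowered Casp1 in CybbKO tissue 1.61-fold, a log2 fold change of -0.69 ± 0.18 with an adjusted p of 0.0280. In WT tissue the log2 fold change was -0.55 ± 0.18, the adjusted p was 0.111, or 0.0483 by DESeq2, and without WT naive replicate 3 it was -0.76 with an adjusted p of 0.0157.

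Casp4 (ENSMUSG00000033538; 5308828 to 5336783, plus strand), the lipopolysaccharide receptor caspase-11, had 9.12, 9.71 and 11.6 CPM in CybbKO naive and 20.6, 13.6 and 25.4 CPM in CybbKO ligated libraries. In WT mice it had 12.2, 7.46 and 7.40 CPM without and 10.3, 12.6 and 14.5 CPM with the ligature. The groups were apart in CybbKO mice and overlapped in WT mice through WT naive replicate 1. Casp4 rose 1.96-fold in CybbKO tissue, a log2 fold change of 0.97 ± 0.26 with an adjusted p of 0.0304, and the WT log2 fold change was 0.46 ± 0.26 with an adjusted p of 0.344. The 2 caspase calls in CybbKO tissue were not held by every library. Casp1 was not called without CybbKO ligated replicate 1 or 3 or CybbKO naive replicate 1 or 2, with adjusted p-values up to 0.111, and Casp4 was not called without CybbKO ligated replicate 1 or 3 or without any of the 3 CybbKO naive libraries, with adjusted p-values up to 0.137. The direction stayed, with log2 fold changes of -0.76 to -0.60 for Casp1 and 0.75 to 1.18 for Casp4.

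The windows of these neighbours are set side by side because they moved in opposite directions. Capitals mark NF-kB consensus matches in Casp4 (chr9:5308599-5308898, plus strand) and a PU.1 core in Casp1 (chr9:5298267-5298566, plus strand).
Casp4: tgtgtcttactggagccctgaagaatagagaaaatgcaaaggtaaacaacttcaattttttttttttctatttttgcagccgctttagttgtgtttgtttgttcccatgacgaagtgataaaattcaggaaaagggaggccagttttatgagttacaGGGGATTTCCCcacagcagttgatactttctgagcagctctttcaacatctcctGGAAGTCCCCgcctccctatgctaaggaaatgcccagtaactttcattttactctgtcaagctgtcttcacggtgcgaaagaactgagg
Casp1: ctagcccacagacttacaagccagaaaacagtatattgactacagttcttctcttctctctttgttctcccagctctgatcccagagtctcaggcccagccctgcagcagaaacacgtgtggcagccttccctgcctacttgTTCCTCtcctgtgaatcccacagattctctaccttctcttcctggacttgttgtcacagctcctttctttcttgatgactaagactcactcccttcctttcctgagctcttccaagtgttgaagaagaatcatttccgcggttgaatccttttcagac

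RefSeq windows of 300 bases were found for 8 of the 9 genes, and not for Gsdmd. Both strands were searched for the NF-kB consensus, the interferon-stimulated element core (GAAA, a pair of any bases, GAAA), the AP-1 element TGANTCA and the PU.1 core GAGGAA, and no match of one motif overlapped a match of another. Among all 32851 windows, 8.46% held the NF-kB consensus, 3.44% the interferon-stimulated element core, 7.81% the AP-1 element and 28.3% the PU.1 core. These are shares of windows, whereas members are named by gene. Nlrp3, Casp4 and Nod1 had more than a single window each, so the shares are no direct measure for the members. The NF-kB consensus was found for Nlrp3, Casp4 and Naip5, and the PU.1 core for Pycard, Casp1 and a second Nlrp3 window. Nlrc4, Nod1 and Nod2 held none of the 4. A match gives the letters only and not a bound site. Nlrp3, which rose, held the NF-kB consensus and the PU.1 core in separate windows. Naip5, which edgeR did not call, held the NF-kB consensus. Whether a motif goes with a direction was not tested.

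Gsdmd (ENSMUSG00000022575; chromosome 15, 75862327 to 75867408, plus strand), the pore-forming effector cleaved by both caspases, had 8.69, 5.91 and 7.87 CPM in CybbKO naive and 15.9, 18.2 and 17.6 CPM in CybbKO ligated libraries. In WT it had 7.19, 7.34 and 11.8 CPM in naive and 9.86, 13.1 and 13.0 CPM in ligated libraries. The CybbKO ligated libraries were the 3 highest of the 12 and close together, while WT naive replicate 3 overlapped the WT ligated libraries. Gsdmd rose 2.30-fold in CybbKO tissue, a log2 fold change of 1.20 ± 0.22 with an adjusted p of 0.00615. In WT tissue the log2 fold change was 0.45 ± 0.22, with an adjusted p of 0.281. The CybbKO call held under each of the 20 alternatives run, with log2 fold changes of 1.05 to 1.32 and adjusted p-values of 1.7e-05 to 0.0301.

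**Figure D2:**
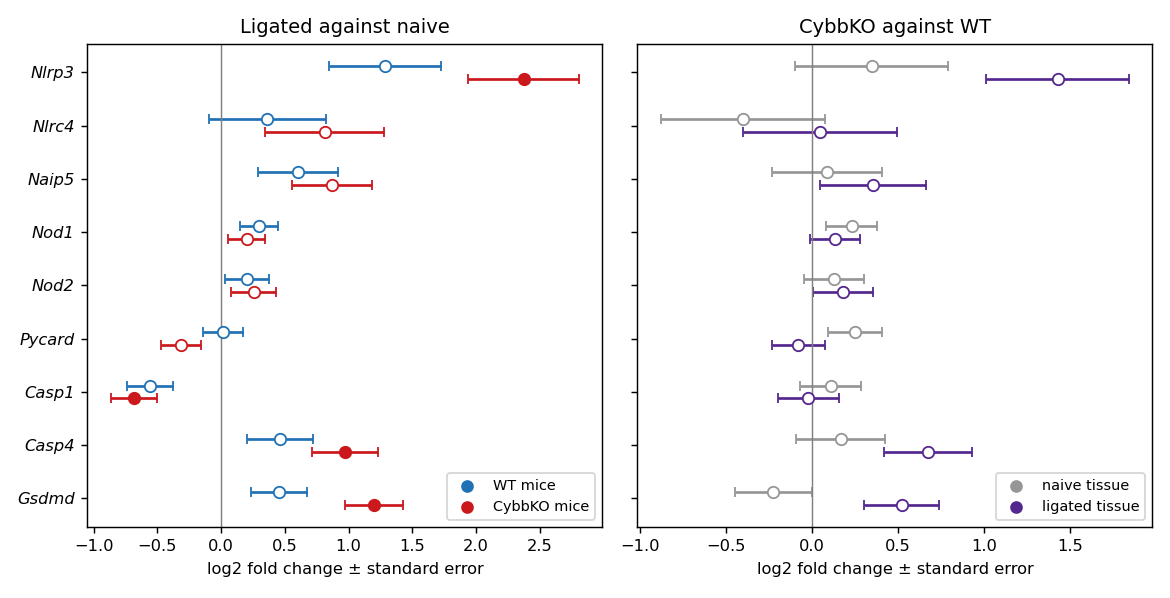
Log2 fold changes of the 9 genes (points) with their standard errors (bars) from the joint edgeR fit of 12 libraries, for ligated against naive tissue on the left and CybbKO against WT on the right. Filled points had an adjusted p under 0.05, which were Nlrp3, Casp1, Casp4 and Gsdmd in CybbKO mice, and all points on the right are open.

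Whether the genotypes differed was tested in ligated tissue, in naive tissue and as the difference between the 2 ligature responses. In ligated tissue 0 of the 9 genes were called by edgeR, where 0.00665% of all genes were (1 gene, Cybb), and 0 of 9 by DESeq2, where 0.112% were. At an unadjusted p under 0.05 there were 3 of 9, all higher in the libraries labelled CybbKO, against 3.34% of all genes tested and 2.87% in this direction. Nlrp3 was 2.69-fold higher, a log2 fold change of 1.43 ± 0.41 (unadjusted p = 0.00501, adjusted p = 1.00, or 0.198 by DESeq2). Casp4 had a log2 fold change of 0.67 ± 0.26 (unadjusted p = 0.0230) and Gsdmd of 0.52 ± 0.22 (unadjusted p = 0.0364), both with an adjusted p of 1.00. The libraries of Nlrp3, Gsdmd and Nod1 did not overlap between the genotypes and were all higher in CybbKO, which was so for 5% of all genes in this direction. For Nlrp3 the difference was 1.05 on the log2 scale without CybbKO ligated replicate 3 and 1.73 without CybbKO ligated replicate 2, the extremes over single libraries omitted. The remaining members had log2 fold changes from -0.08 ± 0.16 for Pycard to 0.35 ± 0.31 for Naip5, with Casp1 at -0.02 ± 0.18 and the scarce Nlrc4 at 0.05 ± 0.45. In the same comparison leukocyte markers lay in the same direction, with 6 of 10 neutrophil markers (median log2 fold change 1.31) and 6 of 12 monocyte and macrophage markers (median 0.57) at an unadjusted p under 0.05 and 0 of either called, and their part in the values of Nlrp3, Casp4 and Gsdmd was not tested.

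In naive tissue 0 of the 9 genes were called by edgeR, where 0.00665% of all genes were, and 0 of 9 by DESeq2, where 0.011% were. Members with an unadjusted p under 0.05 were also 0 of 9, against 2.03% of all genes. The log2 fold changes of CybbKO against WT ran from -0.40 ± 0.48 for Nlrc4 to 0.35 ± 0.45 for Nlrp3, with Gsdmd at -0.23 ± 0.22 and Pycard at 0.25 ± 0.16. Pycard was the 1 member whose naive libraries did not overlap, at 283 to 293 CPM in CybbKO and 215 to 279 CPM in WT, which was so for 2.08% of all genes in this direction.

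The ligature responses themselves were not shown to differ between the genotypes for any member. By edgeR 0% of all genes and 0 of the 9 were called, as by DESeq2, and 1 of 9 had an unadjusted p under 0.05, against 2.27% of all genes. This was Gsdmd, whose response was larger in CybbKO by 0.75 ± 0.31 on the log2 scale (unadjusted p = 0.0353, adjusted p = 1.00). The difference was 1.08 ± 0.61 for Nlrp3 (unadjusted p = 0.101), 0.51 ± 0.36 for Casp4 (unadjusted p = 0.192) and -0.13 ± 0.25 for Casp1 (unadjusted p = 0.614). With single libraries omitted, the difference was as low as 0.48 for Gsdmd (without WT naive replicate 3), 0.70 for Nlrp3 (without CybbKO ligated replicate 3) and 0.22 for Casp4 (without WT naive replicate 1). The intervals of Nlrp3 and Casp4 thus hold a difference of 0 as well as a large one. For 1 gene compared between a pair of groups, each with 3 libraries, 0.1 is the smallest two-sided p that exact permutation allows. This limit is not that of the interaction, which spans all 4 groups.

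Neutrophil, macrophage, fibroblast and endothelial transcripts moved with the ligature beside these genes. In bulk tissue, fewer cells of a type and less RNA per cell cannot be told apart. The summed level of 12 neutrophil markers, led by S100a9 and S100a8, was 464 to 920.2 CPM in WT naive, 900.1 to 1020 CPM in CybbKO naive, 1597 to 3941 CPM in WT ligated and 2968 to 11725 CPM in CybbKO ligated libraries. Mpo and Elane, markers of immature neutrophils, were at or near 0, with at most 1.58 and 0.294 CPM in any library. The summed level of 12 monocyte and macrophage markers was 138 to 176 CPM in WT naive, 123 to 138 CPM in CybbKO naive, 208 to 351 CPM in WT ligated and 304 to 485 CPM in CybbKO ligated libraries. In CybbKO mice 8 of the 10 neutrophil markers tested and 12 of the 12 macrophage markers were called higher with the ligature, and in WT mice 1 of 10 and 3 of 12, against 13% and 3.2% of all genes called in either direction. At an unadjusted p under 0.05 these were 10 of 10 and 12 of 12 in CybbKO and 9 of 10 and 9 of 12 in WT mice, against 27.7% and 19.9% of all genes. The summed level of 8 fibroblast markers was 1844 to 2971 CPM in WT naive, 1415 to 1909 CPM in CybbKO naive, 5065 to 8129 CPM in WT ligated and 3917 to 10513 CPM in CybbKO ligated libraries, and that of 6 endothelial markers was 117 to 147, 131 to 148, 211 to 326 and 231 to 335 CPM in the same order. With the ligature 7 of the 8 fibroblast and 5 of the 6 endothelial markers were called higher in CybbKO mice, and 2 of 8 and 3 of 6 in WT mice, beside the same shares of all genes. At an unadjusted p under 0.05 these were 7 of 8 and 6 of 6 in CybbKO and 6 of 8 and 6 of 6 in WT mice.

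Among the 3 CybbKO ligated libraries, replicate 3 was highest and replicate 2 lowest in both the neutrophil sum and Nlrp3, and in the 3 WT ligated libraries replicate 3 was highest and replicate 1 lowest in both. The macrophage and endothelial sums had this same order in both groups, and so had Casp4 and Nod2. Gsdmd did not keep this order in CybbKO ligated tissue, where its highest value, 18.2 CPM, came from the library with the lowest neutrophil sum. The part of these cells in the changes of Nlrp3, Casp4, Gsdmd and Casp1 was not tested.

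**Figure D3:**
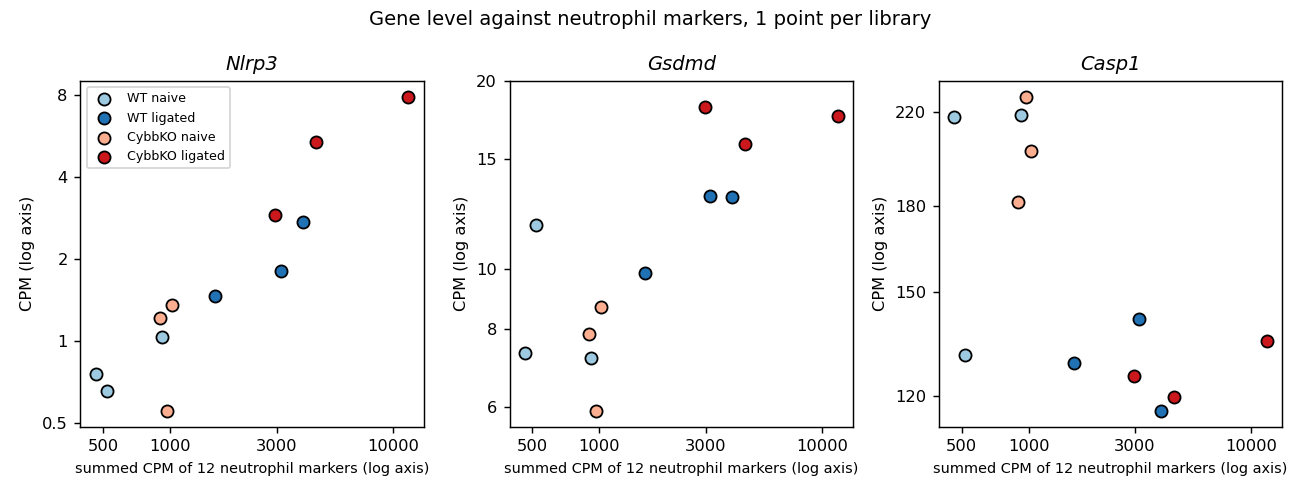
Nlrp3, Gsdmd and Casp1 (CPM, log axes) against the summed CPM of 12 neutrophil markers (log axis), with 1 point per library coloured by group. Nlrp3 was low where the marker sum was low and reached 7.90 CPM at 11725 CPM of markers, whereas Casp1 was at 116 to 141 CPM in all 6 ligated libraries across their range of marker sums.

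The genes whose levels were most alike over the 12 libraries differed from member to member. These are correlations of log2 CPM over libraries that share group structure, and they are given as descriptions. For Nlrp3 they were Itgal, the LFA-1 integrin of leukocytes (Pearson's r = 0.990), Cxcr2, the neutrophil chemokine receptor (r = 0.988), and Srgn, the proteoglycan of haematopoietic granules (r = 0.987). For Casp4 they were Ptgs2, the inducible cyclooxygenase (r = 0.964), 5430427O19Rik (r = 0.957) and Ptprc, the pan-leukocyte marker CD45 (r = 0.945). Gsdmd was closest to Unc93b1, which carries nucleic acid sensing Toll-like receptors to endosomes (r = 0.971), Limd2 (r = 0.969) and C1qb, a complement chain made by macrophages (r = 0.968).

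Casp1 was closest to Slc30a1, a zinc exporter (r = 0.983), Zbtb14 (r = 0.982) and Vps13a (r = 0.975), none of which is a leukocyte marker. The closest genes were Elmod3, Acad10 and Gpr137 for Pycard (r = 0.935 to 0.949) and Gcnt2, Alkbh5 and Cnpy4 for Nod2 (r = 0.935 to 0.956). For the scarce Naip5 they were Pld1, Tent5a and Htr7 (r = 0.958 to 0.960) and for Nlrc4 Amigo1, Prex2 and Omd (r = 0.918 to 0.931). Within the 9 genes, the pairs with an r beyond 0.8 in size over the 12 libraries were Nlrp3 with Casp4 (r = 0.93) and Gsdmd (r = 0.83), Casp4 with Naip5 (r = 0.86) and Nod2 (r = 0.83), Casp1 against Gsdmd (r = -0.87) and Nlrc4 against Pycard (r = -0.86).

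The wider pathway was followed in 4 lists, counted beside the same backgrounds of all genes with the ligature. These were 3.2% in WT and 13% in CybbKO tissue for edgeR's calls, 8.97% and 17.9% for DESeq2's, and 19.9% and 27.7% at an unadjusted p under 0.05 by edgeR. Of 14 further NOD-like receptors and inflammasome sensors, 12 were tested, and Nlrp6 and Naip1 were too low. With the ligature 4 of the 12 rose in CybbKO tissue and 1 in WT tissue by edgeR, 5 and 3 were called by DESeq2, and 8 and 5 had an unadjusted p under 0.05. Mefv, which encodes the sensor pyrin, had 1.13, 0.694 and 0.763 CPM in CybbKO naive and 8.17, 3.50 and 10.8 CPM in CybbKO ligated libraries, a log2 fold change of 3.12 ± 0.49 (adjusted p = 0.00303). Its WT value was 1.20 ± 0.47 (adjusted p = 0.180), and the difference between the responses was 1.92 ± 0.66 (unadjusted p = 0.0134, adjusted p = 1.00). Nlrp12, an NLR of myeloid cells, rose by a log2 fold change of 2.94 ± 0.59 in CybbKO tissue (adjusted p = 0.00871), or 3.72 without CybbKO naive replicate 1, and Ciita, the transactivator of MHC class II genes, by 1.06 ± 0.22 (adjusted p = 0.00905). Their WT values were 2.58 ± 0.66 for Nlrp12 (adjusted p = 0.0576, or 0.00363 by DESeq2) and 0.84 ± 0.22 for Ciita (adjusted p = 0.0590, or 0.00513 by DESeq2). Nlrc3 rose in both genotypes, by 1.26 ± 0.25 in WT (adjusted p = 0.0255) and 1.29 ± 0.25 in CybbKO tissue (adjusted p = 0.00670). The WT call of Nlrc3 was lost without any 1 of the 3 WT ligated libraries or WT naive replicate 1 or 2, with log2 fold changes of 1.13 to 1.36 and adjusted p-values of 0.0517 to 0.121. The most abundant of the list, Nlrp10, had group means of 86.8 to 98.7 CPM and single libraries from 54.9 to 125 CPM.

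Of 13 output genes, 2 were called by edgeR and 3 by DESeq2 in CybbKO tissue, against 13% and 17.9% of all genes. The unadjusted p of 4 was under 0.05 there, against 27.7% of all genes, so these counts lay near the shares of all genes. In WT tissue edgeR called 0, the unadjusted p of 2 was under 0.05 and DESeq2 passed 1, Il1b. Il1b, the main substrate of caspase-1, rose by a log2 fold change of 2.71 ± 0.53 in CybbKO tissue (adjusted p = 0.00729), and its WT value was 1.82 ± 0.51 (adjusted p = 0.0769), or 1.09 without WT ligated replicate 3. Il1r2, the decoy receptor that binds IL-1 without signalling, had 10.6, 9.96 and 7.20 CPM in CybbKO naive and 23.3, 17.9 and 28.1 CPM in CybbKO ligated libraries, a log2 fold change of 1.32 ± 0.24 (adjusted p = 0.00510). In WT tissue the log2 fold change of Il1r2 was 0.11 ± 0.23, and the test of the difference between genotypes gave 1.21 ± 0.33 (unadjusted p = 0.00340, adjusted p = 1.00). Il18, the other caspase-1 substrate, had log2 fold changes of -0.61 ± 0.21 in WT (adjusted p = 0.131) and -0.52 ± 0.21 in CybbKO tissue (adjusted p = 0.124). Il1rn, the IL-1 receptor antagonist, was the most abundant output gene at group means of 280.2 to 385 CPM and was not called.

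Of 20 NOD1 and NOD2 signalling genes, 3 rose in CybbKO tissue by both tools, where edgeR called 13% and DESeq2 17.9% of all genes. The unadjusted p of 5 was under 0.05 there, against 27.7% of all genes, so these counts lay near the shares of all genes. In WT tissue 0 passed edgeR's test, the unadjusted p of 3 was under 0.05 and DESeq2 passed 1, Slc15a3. Slc15a3, a lysosomal transporter of muramyl dipeptide, had 1.33, 0.971 and 1.74 CPM in CybbKO naive and 8.04, 5.32 and 7.76 CPM in CybbKO ligated libraries, a log2 fold change of 2.39 ± 0.32 (adjusted p = 0.00207). Its WT value was 1.23 ± 0.32 (adjusted p = 0.0594). The ubiquitin ligase Birc3 rose by 1.09 ± 0.23 (adjusted p = 0.00993) and the NF-kB inhibitor Tnfaip3 by 0.92 ± 0.22 (adjusted p = 0.0200) on the log2 scale in CybbKO tissue. Their WT values were 0.61 ± 0.22 for Birc3 (adjusted p = 0.158) and 0.18 ± 0.22 for Tnfaip3 (adjusted p = 0.695). The CybbKO call of Tnfaip3 was lost without CybbKO ligated replicate 1 or 3 or CybbKO naive replicate 2, with adjusted p-values of 0.0649 to 0.0894. Ripk2, the kinase bound by both receptors, had log2 fold changes of 0.01 ± 0.18 in WT and -0.15 ± 0.18 in CybbKO tissue, and Tab2, the most abundant of the list, had group means of 155 to 176 CPM.

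The 10 regulators of inflammasome assembly had 0 calls by edgeR in either genotype and 1 by DESeq2 in each, Trim30a, with 3 of 10 at an unadjusted p under 0.05 in CybbKO tissue, where 27.7% of all genes were, and 4 of 10 in WT tissue, where 19.9% were. Txnip, which binds NLRP3 under oxidative stress and was the most abundant of them, had log2 fold changes of -0.58 ± 0.26 in WT (adjusted p = 0.232) and -0.66 ± 0.26 in CybbKO tissue (adjusted p = 0.117). Between the genotypes 0 of the 55 tested genes of the 4 lists were called in ligated or in naive tissue, by edgeR or by DESeq2, and 7 in ligated and 1 in naive tissue had an unadjusted p under 0.05, against 3.34% and 2.03% of all genes. Outside the sensors the 7 held Il1r2 (log2 fold change 0.92 ± 0.23, unadjusted p = 0.00195), Slc15a3 (1.11 ± 0.30, unadjusted p = 0.00355), Il1b (1.44 ± 0.50, unadjusted p = 0.0145) and Il18bp (0.60 ± 0.24, unadjusted p = 0.0267), each higher in CybbKO. Over single libraries left out the unadjusted p was at most 0.0146 for Il1r2, 0.0213 for Slc15a3, 0.0562 for Il1b and 0.128 for Il18bp. In ligated tissue all 12 tested sensors had log2 fold changes above 0, where 53.4% of all genes did, as had all 12 macrophage markers, 9 of 10 neutrophil markers, all 8 fibroblast markers and all 7 T and NK cell markers tested. With 1 library left out, the lowest values were below 0 for Nlrp10 (-0.165), Nlrp1b (-0.224), Naip6 (-0.171), Nlrx1 (-0.0647) and Naip2 (-0.0244). Of the 12 sensors, 3 had an unadjusted p under 0.05, which were Nlrc5 (1.81 ± 0.60, unadjusted p = 0.0106), Nlrp12 (1.65 ± 0.55, unadjusted p = 0.0112) and Mefv (1.32 ± 0.45, unadjusted p = 0.0124). Nlrc5 had 19.7, 72.8 and 28.3 CPM in the CybbKO ligated libraries and 11.4, 12.5 and 10.5 CPM in the WT ligated libraries, and without CybbKO ligated replicate 2, the highest of them, its log2 fold change was 1.07 ± 0.55 (unadjusted p = 0.0804). Without WT ligated replicate 1 the log2 fold change of Nlrp12 was 1.42 and that of Mefv 1.00, neither with an unadjusted p under 0.05, and without CybbKO ligated replicate 3 Mefv had 0.96 (unadjusted p = 0.0666).

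**Figure D4:**
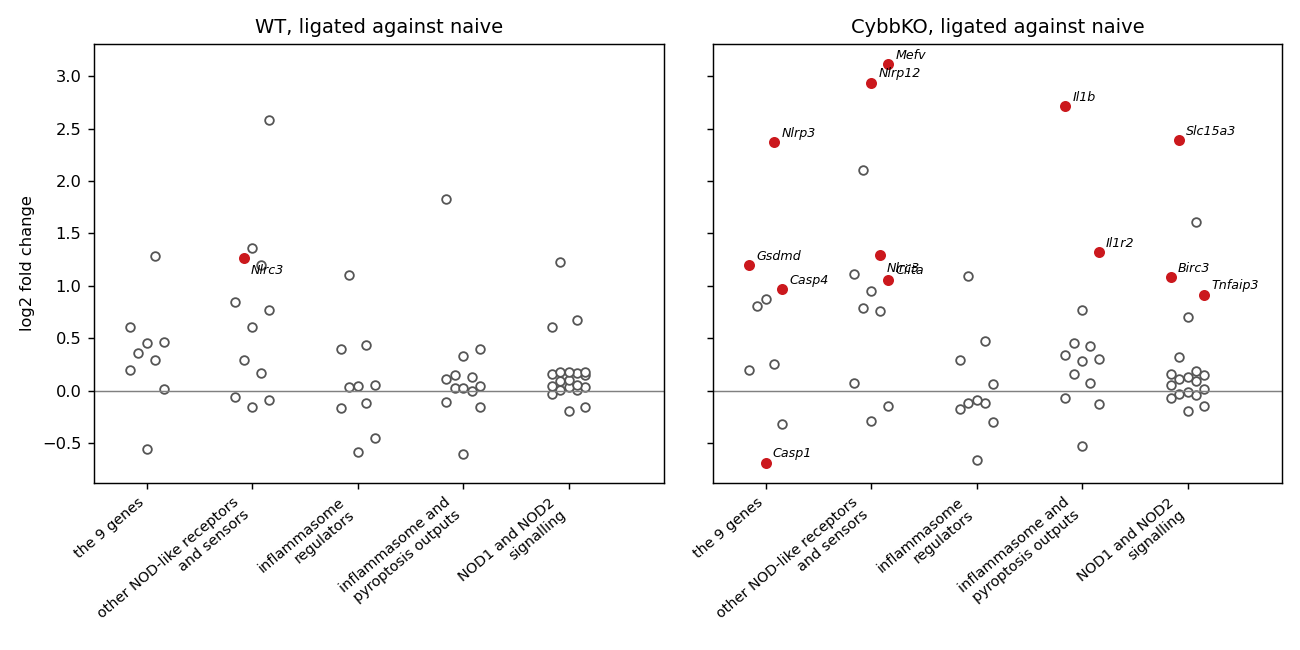
Log2 fold changes with the ligature in WT (left) and CybbKO (right) tissue of the 9 genes and of the 4 lists of further pathway genes, with 1 point per gene. Red filled and named points had an adjusted p under 0.05 by edgeR, 1 on the left (Nlrc3) and 13 on the right, where Casp1 is the 1 below 0.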

How the data were processed

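Polyadenylated RNA of gingiva was sequenced from stranded libraries. The authors deposited raw counts, the reads counted per gene, for 12 libraries. Per the methods, reads were aligned to GRCm38 with STAR and counted by strand with featureCounts, whereas the labels and the table's name give HTSeq (version 0.10.0), so the counter is not settled. Symbols, positions and exon lengths came from GENCODE M21 (21939 of 21965 identifiers matched, 26 not), and promoter windows from RefSeq on GRCm38.p6.

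Groups were taken from the sample labels. Counts were tested in R 4.3.3 with edgeR 4.0.16 (filterByExpr, TMM factors of 0.918 to 1.08, quasi-likelihood F test) in a joint model of all 12 libraries by group. Benjamini-Hochberg adjustment ran over 15046 genes, and an adjusted p under 0.05 was a call. Standard errors are the absolute log2 fold change divided by the square root of F. The biological coefficient of variation was 0.240. CPM used TMM, and RPKM the summed exon length. Log2 CPM for correlations had a prior count of 2. Scripts were tested on simulated data. Figures were drawn in Python 3.11.15 with matplotlib 3.10.9.

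All 9 genes are given with values. From each further list, the called genes (at most the 4 with the smallest p) and the most abundant gene are named. Beyond that rule, and after their values were seen, Il18, Ripk2, Trim30a, Nlrc5, Il18bp, Nlrp1b, Nlrx1, Naip2 and Naip6 are named. So are Nlrp10, Nlrp12, Mefv, Il1r2, Slc15a3 and Il1b between genotypes. For each member except Nod1, whose list is not reported here, the 3 genes with the highest Pearson's r over all genes tested are listed. The members and lists were chosen with earlier results of these data known. Alternatives were DESeq2 1.42.0, scaling by DESeq2 size factors or by library size, a filter on low counts that was absent or that required 10 counts per library, a robust fit, a fit of the 6 libraries concerned, a replicate block, and omission of single libraries, which was extended to the further lists after the data were seen.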

Additional observations from a re-analysis of the deposited data

How the results depend on the processing

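Of the member fold changes recomputed under each alternative, 851 kept their direction and side of the threshold, 9 lost a call, 4 gained one and 22 changed sign. Nlrp3 and Gsdmd were called with the ligature in CybbKO tissue in every alternative. The losses were Casp1 and Casp4 in CybbKO tissue with 1 library fewer. The gains were Casp1 in WT tissue (DESeq2, and without WT naive replicate 3), Naip5 in CybbKO tissue (DESeq2) and Pycard in CybbKO tissue (without CybbKO ligated replicate 2). The cause of these losses and gains was not tested.

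With each library left out in turn, members called ran from 0 to 1 in WT and from 2 to 5 in CybbKO tissue, and were 0 in both genotype comparisons and the interaction. All genes called ran from 27 (without WT naive replicate 2) to 900 (without CybbKO ligated replicate 2) in WT tissue, from 837 (without CybbKO ligated replicate 1) to 2949 (without CybbKO ligated replicate 2) in CybbKO tissue, from 0 (without WT ligated replicate 3) to 2 between genotypes in ligated tissue, and from 0 to 1 for the interaction. WT tissue also had 737 without WT naive replicate 3, 113 without WT naive replicate 1, 290 without CybbKO ligated replicate 1 and 110 to 247 without a WT ligated library. CybbKO tissue had 854 without CybbKO ligated replicate 3 and 1113 to 1178 without a CybbKO naive library.

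DESeq2 called 1374 genes and 1 member in WT tissue, against 481 and 0, and 18 genes in ligated and 2 in naive tissue between genotypes, against 1 and 1. With only the 6 ligated libraries 0 genes were called. The replicate numbers were not taken to pair the mice. Same-numbered libraries of 2 groups deviated with correlations of -0.228 to 0.115. Differently numbered libraries were not compared, so these values cannot show whether the numbers link libraries. A replicate block left the direction and side of 45 of 45 member fold changes as they were and called 271 genes in WT tissue.

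The sign changes all came from leaving out 1 library, in values that passed no threshold. With the ligature in WT tissue Pycard ran from -0.070 to 0.12 (also -0.0098 and -0.0051). Between genotypes in ligated tissue Nlrc4 ran from -0.31 to 0.38 (also -0.087 and -0.025), Pycard from -0.28 to 0.031 and Casp1 from -0.092 to 0.048 (also 0.015). In naive tissue Nlrc4 ran from -0.69 to 0.12, Naip5 from -0.15 to 0.39 (also -0.12), Casp1 from -0.099 to 0.22 and Gsdmd from -0.35 to 0.044. For the interaction Nlrc4 ran from -0.072 to 0.79, Naip5 from -0.037 to 0.50, Casp1 from -0.25 to 0.075, Nod1 from -0.24 to 0.045 and Nod2 from -0.085 to 0.19 (also -0.081, -0.027 and -0.0072). Nlrc4 was not tested where every library needed 10 counts. With library size in place of TMM, Pycard in CybbKO naive tissue had 279.6 CPM and Nod1 in WT ligated tissue 22.5 CPM. These values rest on at most 3 mice per group, and those of Nlrc4 also on few reads. The cause of the sign changes was not tested.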
